A study of Homo sapiens with 14 samples.

Results

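NF-κB is assembled from 5 related proteins, and the ChIP-seq regions of the genes that encode them are described here: NFKB1 (p105 and its product p50), NFKB2 (p100 and its product p52), REL (c-Rel), RELA (RelA, also called p65) and RELB (RelB). A region was taken as a member when the gene the authors list as closest to it, or the gene with the closest transcription start site (TSS), was 1 of these 5 (ENSG00000109320, ENSG00000077150, ENSG00000162924, ENSG00000173039 and ENSG00000104856). This gave 16 of the 14865 regions in the deposited table, and 5 of the 8450 genes to which a region was assigned. Binding was mapped in L1236, an established Hodgkin lymphoma (HL) cell line with constitutive NF-κB activity, by chromatin immunoprecipitation and sequencing of p50, p52, RelA and RelB. Each of the 4 subunits was immunoprecipitated in 2 replicates, and 6 libraries of input DNA gave the background. The cells were grown in medium with serum and no treatment is named for any sample, so the table holds binding at steady state in 1 cell line and no stimulated or depleted cells. A single antibody served both replicates of p50, of RelA and of RelB, and 2 different anti-p52 antibodies served 1 p52 replicate each. c-Rel itself was not among the immunoprecipitated proteins, so REL appears here only as a target gene.

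NF-κB subunits bind DNA as dimers that recognise a short motif, the κB site. In the canonical pathway, the IκB kinases release dimers such as p50-RelA from inhibitors, while in the non-canonical pathway the kinase NIK triggers processing of p100 to p52 and the release of p52-RelB. p50 and p52 lack the transactivation domain that RelA, RelB and c-Rel carry, and several genes of the system, among them the gene of the inhibitor IκBα, are known targets of NF-κB itself. HL cells are known for persistently active NF-κB.

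For each region the authors list whether a subunit was called, the fold enrichment over input at the summit (the highest point of the peak), the pileup (fragments that overlap at the summit), the summit position and the number of reads. These values come from merged replicates, and carry no replicate error. The replicates are visible only through 2 signal values per subunit and region that entered the authors' comparison of replicates. Their scale is not named, and they are used here as percentiles among the called regions of the same subunit. The reads summed over all regions were 1654137 (p50), 1810792 (p52), 315151 (RelA) and 470788 (RelB), so RelA and RelB values rest on the fewest reads. The study states that all libraries passed its quality control. In its supplement, normalized strand cross-correlation, a measure of library quality, was lower for RelA than for the other ChIP libraries. The first RelA replicate was graded medium and the second very high. No test between groups was possible on merged libraries, and regions are not replicates, so the counts and ranks that follow are descriptions.

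All 5 genes carried a region over their TSS that was called for p50, p52, RelA and RelB together. These were 5 of the 16 member regions, whereas 2.35% of all regions in the table were called for all 4 subunits. Among the 2447 regions over a TSS, 3.56% were called for all 4. The 5 regions are also wide, from 1384 to 2993 bp, and a wide region can collect more calls. Among the 1173 regions over a TSS that were at least as wide as the narrowest of the 5, 5.63% were called for all 4 subunits. Counted by gene, 4.28% of the 8450 genes had an all-4 region, against 5 of these 5.

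RelA was called at the 5 TSS regions and at none of the other 11 member regions. Of all regions, 3.31% were called for RelA, and over a TSS the share was 4.74%. RelB was called in 9 of the 16 regions (26.8% in the table), p50 in 14 (73.8%) and p52 in 13 (73.3%). Leaving RelA aside, p50, p52 and RelB were called together in 8 of the 16 regions, against 19.4% of all regions. The 8 comprise the 5 TSS regions, 2 regions upstream of REL and 1 inside RELB. Of the remaining 8 regions, 3 held p50 and p52, 2 held p50 only, 2 held p52 only, and 1, downstream of RELA, held p50 with RelB.

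**Figure D1:**
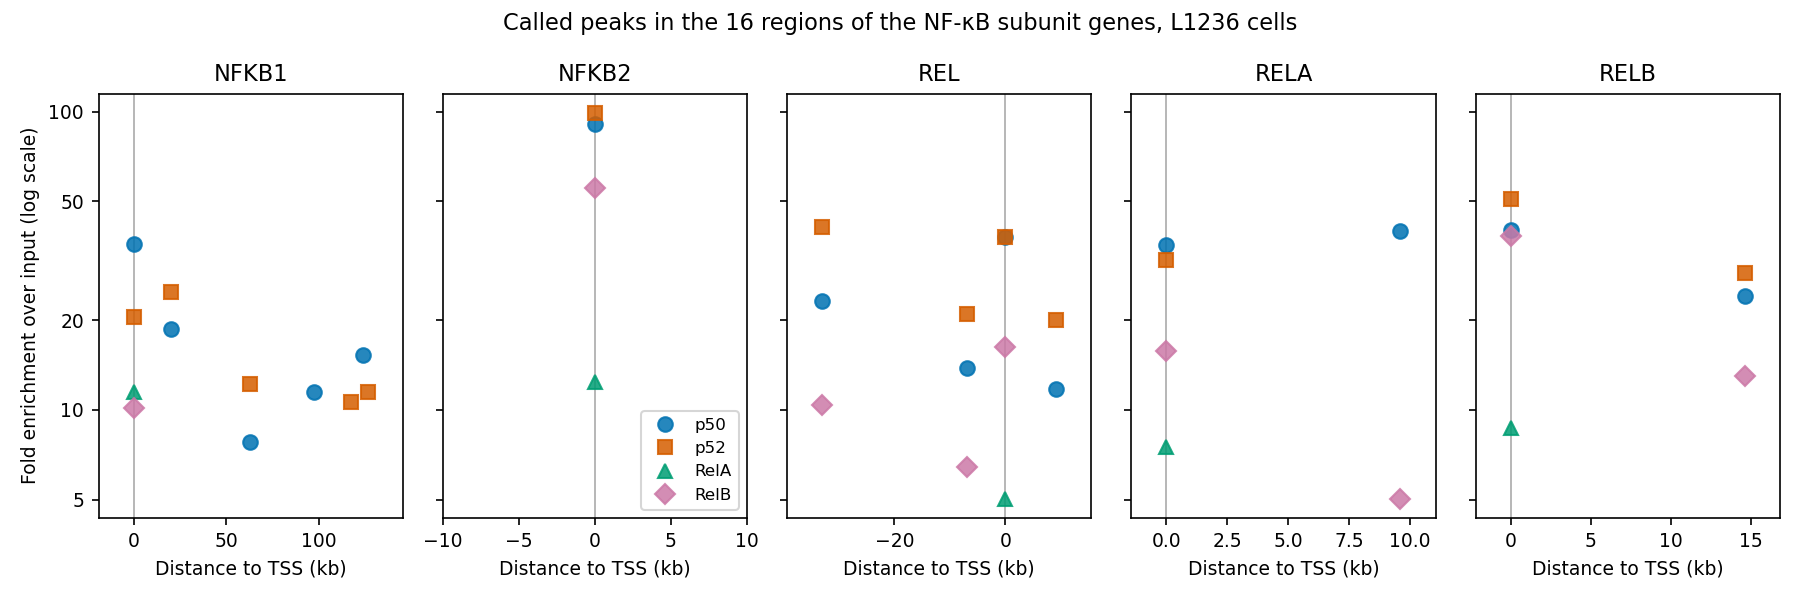
Fold enrichment over input (log scale) of every called peak in the 16 regions, against the distance of the region's edge from the TSS in kb, negative upstream, with 1 panel per gene and 1 symbol per subunit. RelA (green triangles) appears only at distance 0, and NFKB2 has a single region that holds the strongest p50, p52 and RelB peaks of the set.

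NFKB1, which encodes p105 and p50, had 7 regions spread over 127 kb, 1 of them at its TSS. The median over all genes with a region was 1, and 3.74% of them had 7 or more. The TSS region (chr4:103641169-103642814, hg18) had a fold enrichment of 36.1 for p50, 20.5 for p52, 11.5 for RelA and 10.1 for RelB. Among the called regions of each subunit these values ranked 1116 of 10975, 4285 of 10893, 25 of 492 and 1691 of 3984. NFKB1 therefore stood high for RelA (percentile 95.1) and near the middle for p52 (percentile 60.7) and RelB (percentile 57.6) of the called regions. All-4 regions were stronger in general, with a median p50 fold enrichment of 33.0 against 16.8 over all called p50 regions. Among all-4 regions, NFKB1 lay at percentiles 57.3 (p50), 20.6 (p52), 93.4 (RelA) and 22.9 (RelB). Its p50 value was 1.76 times its p52 value, a ratio exceeded by few of the 349 all-4 regions (percentile 95.1), and its RelB value was 0.881 times its RelA value (percentile 4.01). The RelA rank is uncertain, since the 2 signal values of RelA at this region lay at percentiles 95.5 and 42.9. For p50 they lay at 77.5 and 93.0, for p52 at 73.3 and 52.5, and for RelB at 72.3 and 64.5.

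The other NFKB1 regions held no RelA and no RelB call, and their p50 fold enrichments were below that of the TSS region. The strongest, 20.3 kb downstream of the TSS and inside the gene (chr4:103661792-103662592), had a p52 fold enrichment of 24.9, above the 20.5 at the TSS, and a p50 fold enrichment of 18.7. A further region at 62.9 kb inside the gene was called for both, at 7.79 for p50 and 12.2 for p52. The 4 distal regions, between 97.4 and 126 kb from the TSS, carried 1 call each. Of these calls, 2 were p50 calls, at 11.5 and 15.3, and 2 were p52 calls, at 10.6 and 11.5. The last of the regions within the gene lay at 97.4 kb, and 3 lay beyond its end. For the outermost 2, the closest gene was another one (ENSG00000109323) and only the closest TSS was that of NFKB1.

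NFKB2, which encodes p100 and p52, had 1 region, and it was the strongest of the set. It lay over the TSS (chr10:104143410-104146372, hg18), was 2963 bp wide (percentile 98.7 of all widths), and had a fold enrichment of 91.0 for p50, 99.2 for p52, 12.4 for RelA and 55.3 for RelB. The p50 value was second of the 10975 p50 regions and first of the 2351 over a TSS. The p52 value ranked 12 of 10893, the RelB value 3 of 3984 and the RelA value 19 of 492. Among all-4 regions the p50, p52, RelA and RelB values were at percentiles 99.7, 98.3, 94.8 and 99.7. The replicates placed the region close together, with signal values at percentiles 93.6 and 99.8 for p50, 99.2 and 99.6 for p52, 99.5 and 99.5 for RelB, and 86.8 and 78.5 for RelA. The region held 947 p50 reads (95% Poisson interval 888 to 1009), 1152 p52 reads (1086 to 1220), 112 RelA reads (92.2 to 135) and 495 RelB reads (452 to 541). These and the later intervals cover counting error only. The nearest other regions in the table were 110 kb to the left and 35.6 kb to the right.

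The peaks of NFKB2 did not share 1 position. The p50, p52 and RelA summits lay within 44 bp of each other, 803, 837 and 793 bp from the left edge of the region, whereas the RelB summit lay 2007 bp from it. RelB was thus 1204 bp downstream of p50, 1170 bp from p52 and 1214 bp from RelA. The table lists 1 peak per subunit and region, the most significant, and does not show whether RelB had a further peak at the p50 summit or p50 one at the RelB summit.

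RefSeq (GRCh38.p14) gives 3 starts for NFKB2, and the 300-base windows around start 2 and start 3 contain matches to the 10-base κB consensus, 2 in each. The stretches of 30 bases around them are shown because they are the candidate sites at the most enriched gene of the set, with the matched bases in capitals. From the upper to the lower line they are chr10:102394461-102394490, chr10:102394490-102394519, chr10:102395519-102395548 and chr10:102395674-102395703, all on the plus strand.
NFKB2 start 2, 107 bases upstream: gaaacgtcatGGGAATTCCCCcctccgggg
NFKB2 start 2, 78 bases upstream: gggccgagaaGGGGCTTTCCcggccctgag
NFKB2 start 3, 176 bases upstream: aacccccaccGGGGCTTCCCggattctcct
NFKB2 start 3, 21 bases upstream: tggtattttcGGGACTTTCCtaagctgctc
The distances between the matches at start 2 and those at start 3 were 1029, 1058, 1184 and 1213 bp. The 3 distances between the RelB summit and the summits of p50, p52 and RelA ranged from 1170 to 1214 bp. Only spacings were set side by side, since the summits are on hg18 and the windows on GRCh38.p14, and a match is not a bound site. The primers that the study used for quantitative PCR of immunoprecipitated NFKB2 DNA matched the window of start 2, and are shown because their product spans both matches there.
NFKB2 forward primer, plus strand, chr10:102394414-102394433: gagttaaactttcagccaat
NFKB2 reverse primer, minus strand, chr10:102394496-102394512: ccgggaaagccccttct
The product between them is 99 bp long on GRCh38.p14 (chr10:102394414-102394512).

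At NFKB1, the window of the first RefSeq start holds 1 κB match, 49 bases upstream of the start, and the window of the second start holds none. The 150 bases before the first start (GRCh38.p14, chr4:102501209-102501358, plus strand) are shown, since all 4 summits at NFKB1 lay close to the TSS.
NFKB1: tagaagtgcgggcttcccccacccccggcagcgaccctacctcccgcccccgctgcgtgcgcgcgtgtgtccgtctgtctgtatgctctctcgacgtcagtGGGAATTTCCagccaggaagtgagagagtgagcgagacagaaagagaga
The summits of p50, p52, RelA and RelB were 15 and 16 bp upstream, 7 bp downstream and 32 bp upstream of the TSS (position 103641518 on hg18, as implied by the distances that the authors list for the other NFKB1 regions). The RefSeq start and that TSS come from different annotations and builds and may not be the same base.

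REL, the gene of c-Rel, had 4 regions, a number reached by 13.1% of genes with a region. The TSS region (chr2:60961113-60964105, hg18) was the widest of the 16 at 2993 bp and had a fold enrichment of 38.0 for p50, 38.1 for p52, 5.04 for RelA and 16.3 for RelB. For p50, p52 and RelB these values were at percentiles 91.5, 87.9 and 83.5 of the called regions. Among all-4 regions they were nearer the middle, at percentiles 60.5, 48.4 and 48.4. For RelA the value was the lowest of the 5 TSS regions, at percentile 29.5 of the called regions and 14.6 of the all-4 regions. The RelA signal values were low in both replicates (percentiles 32.9 and 37.8), and those of p50 were high in both (99.5 and 99.2).

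At all 3 other regions of REL, p52 had a higher fold enrichment than p50. The same held at NFKB1 and RELB for every region away from the TSS that was called for both. The region 33.0 kb upstream (chr2:60928191-60929248) had a p52 fold enrichment of 41.0, above that of the TSS region, together with 23.1 for p50 and 10.4 for RelB. Of its p50 and p52 reads, 31.2% were p50 reads (95% Wilson interval 27.4% to 35.1%, 552 reads). The median share was 48.2% over all regions and 64.6% over regions at a TSS, so a lower share away from a TSS was not particular to REL. The region 7.01 kb upstream (chr2:60953936-60955250) had values of 13.8 for p50, 20.9 for p52 and 6.41 for RelB, and its RelB fold enrichment was at percentile 25.9, with signal values at 0.703 and 30.7. The region 9.16 kb downstream of the TSS, inside the gene (chr2:60971413-60972344), had values of 11.8 for p50 and 20.1 for p52 with no RelA or RelB call.

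The background used for fold enrichment was raised at the TSS region of REL. Pileup divided by fold enrichment gives the background level that the authors' peak caller set for a peak, and at the REL TSS region it was 1.84 times the median of all p50 regions, 1.76 times that of p52 and 1.83 times that of both RelA and RelB. At the other REL regions it was between 1.30 and 1.49 for p50 and p52, and for RelB 1.23 at 33.0 kb and 0.862 at 7.01 kb upstream. At NFKB2 the same quantity was 0.732, 0.741, 0.673 and 0.830. By pileup alone, REL had 235 p50 fragments at its summit (percentile 99.8) and NFKB2 224 (percentile 99.6), although their p50 fold enrichments were 38.0 and 91.0. The 71 other p50 regions within 5 Mb of REL had a median of 1.46, so the raised level was not limited to the gene. The part that the background played in the order of the genes was not tested.

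The RefSeq window of REL contains 1 place with a κB match, 47 bases upstream of the start, where overlapping matches lie on both strands. The 150 bases before the start (GRCh38.p14, chr2:60881424-60881573, plus strand) are shown beside those of NFKB1 because the summits of REL also lay just upstream of its TSS.
REL: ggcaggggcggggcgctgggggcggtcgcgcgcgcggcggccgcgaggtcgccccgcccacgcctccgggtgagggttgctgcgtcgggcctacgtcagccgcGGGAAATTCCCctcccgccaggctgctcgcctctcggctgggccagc
The summits of p50, p52, RelA and RelB lay 95, 83, 52 and 89 bp upstream of the TSS implied by the authors' distances (60962256 on hg18).

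RELA, which encodes the transactivating partner of p50 in the canonical dimer, had 2 regions with different subunits. The TSS region (chr11:65186640-65188132, hg18) had a fold enrichment of 35.6 for p50, 31.8 for p52, 7.50 for RelA and 15.8 for RelB, at percentiles 89.3, 81.8, 72.6 and 82.2 of the called regions. Among all-4 regions it was at percentiles 56.4, 38.7, 63.3 and 46.7 in the same order. It held 189 p50, 150 p52, 47 RelA and 65 RelB reads, the fewest p50 and p52 reads of the 5 TSS regions. The replicates did not place it alike, with signal values at percentiles 66.4 and 89.9 for p50, 55.3 and 77.5 for p52, 32.5 and 60.2 for RelA and 90.3 and 57.1 for RelB. The 4 summits lay between 284 and 333 bp upstream of the implied TSS (65186959, minus strand, from the distance of 1 region), farther out than at NFKB1 and REL.

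The second RELA region lay 288 bp beyond the gene and 9.60 kb from its TSS (chr11:65176450-65177361). It was the only member region that held p50 and RelB without p52, a combination found in 1.02% of all regions. Its p50 fold enrichment of 39.9 exceeded that of the RELA TSS, and both replicates ranked it high (percentiles 88.2 and 96.1). RelB was weak there, at 5.04, with signal values at percentiles 33.4 and 12.4. p52 was not called, and the region held 83 p52 reads against 208 p50 reads, so p50 made up 71.5% of both (95% Wilson interval 66.0% to 76.4%), the highest share of the 16 regions. Neither of the 2 RefSeq windows of RELA contains a match to the κB consensus, which says only that the letters are not found in these windows.

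RELB, which encodes the partner of p52 in the non-canonical dimer, had 2 regions, and its TSS region stood out for RelB itself. That region (chr19:50196148-50197531, hg18) had a fold enrichment of 40.2 for p50, 51.1 for p52, 8.71 for RelA and 38.2 for RelB. The RelB value ranked 32 of 3984, and both replicates placed it near the top (percentiles 99.3 and 99.1). The p50 and p52 values were at percentiles 93.0 and 94.99, with replicate percentiles of 88.3 and 85.4 for p50 and 93.4 and 94.1 for p52. The RelA replicates differed more (42.9 and 72.8). Among all-4 regions the p50, p52, RelA and RelB values were at percentiles 64.8, 70.2, 79.1 and 94.6. The ratio of RelB to RelA fold enrichment was 4.39 at RELB and 4.48 at NFKB2, at percentiles 89.4 and 89.7 of the all-4 regions. The 4 summits lay between 65 and 104 bp upstream of the implied TSS (50196539). That position rests on the distance of 1 region, and the gene start in the study's primer list lies upstream of all 4 summits, so the side of the start on which they lie is uncertain.

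The region inside RELB, 14.6 kb from the TSS (chr19:50211137-50212586), was called for p50 at 24.0, p52 at 28.7 and RelB at 13.0. Its p50 and p52 summits lay 19 bp apart, and the RelB summit lay 693 bp from that of p50, towards the TSS. Its 256 p50 reads (Poisson interval 226 to 289) and 315 p52 reads (281 to 352) could not be told apart from the 232 (203 to 264) and 319 (285 to 356) of the TSS region within counting error, but it had fewer RelB reads (84 with a Poisson interval of 67.0 to 104, and 207 with an interval of 180 to 237).

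**Figure D2:**
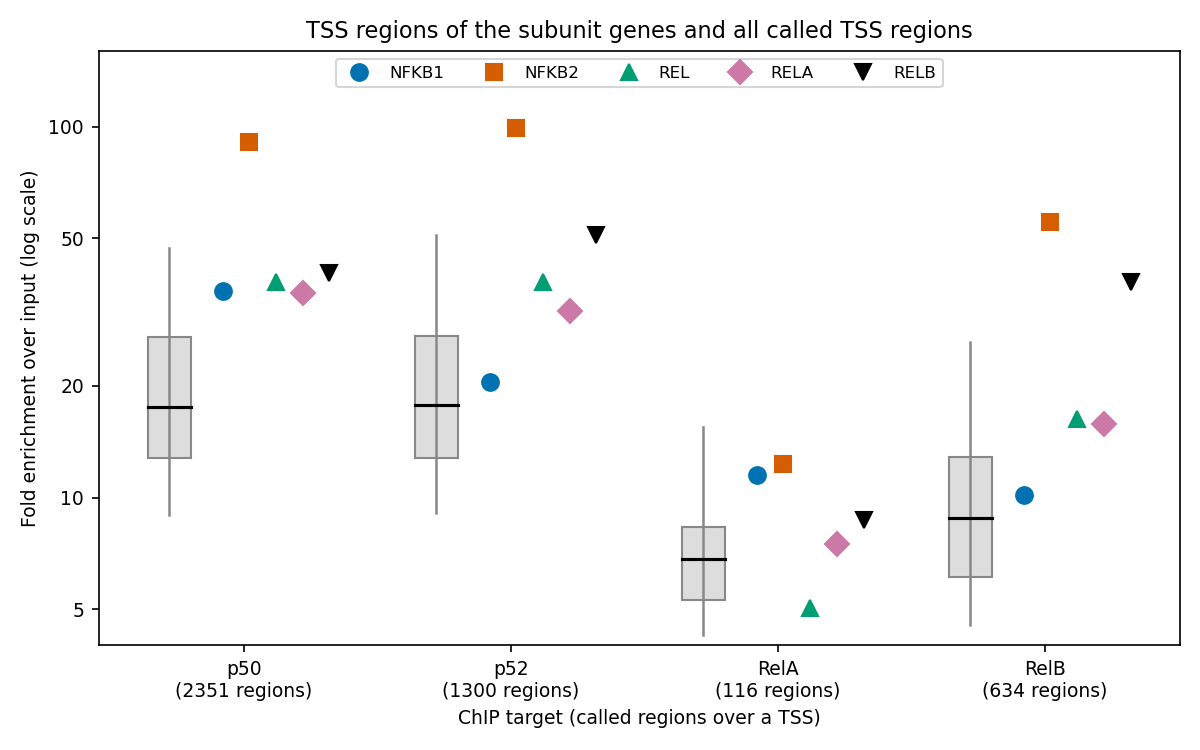
Fold enrichment over input (log scale) of the TSS region of each subunit gene (symbols), beside all called regions over a TSS for the same subunit (box, quartiles and median; line, 5th to 95th percentile). NFKB2 lies above the line for p50, p52 and RelB, RELB for RelB, and REL lies below the RelA median.

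Set side by side, NFKB2 had the highest fold enrichment of the 5 genes for every subunit. Both signal values placed NFKB2 above each of the other 4 genes for p52 and RelB. For p50 and for RelA 1 of the 2 signal values placed NFKB2 above 3 of the 4 only. Below NFKB2 the order was RELB, REL, NFKB1, RELA for p50, and RELB, REL, RELA, NFKB1 for p52. For RelA it was NFKB1, RELB, RELA, REL, and for RelB it was RELB, REL, RELA, NFKB1. Of the 4 neighbouring pairs in each order, both replicates gave the same direction in 3 p50 pairs, 2 p52 pairs, 2 RelB pairs and 1 RelA pair. For p50, REL followed RELB by fold enrichment (38.0 and 40.2), yet both signal values were higher at REL. The other neighbours on which the signal values were split cannot be ordered beyond the replicate differences. These are RELB and REL, and RELA and NFKB1, for p52, REL and RELA, and RELA and NFKB1, for RelB, and all RelA neighbours except RELB and RELA.

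**Figure D3:**
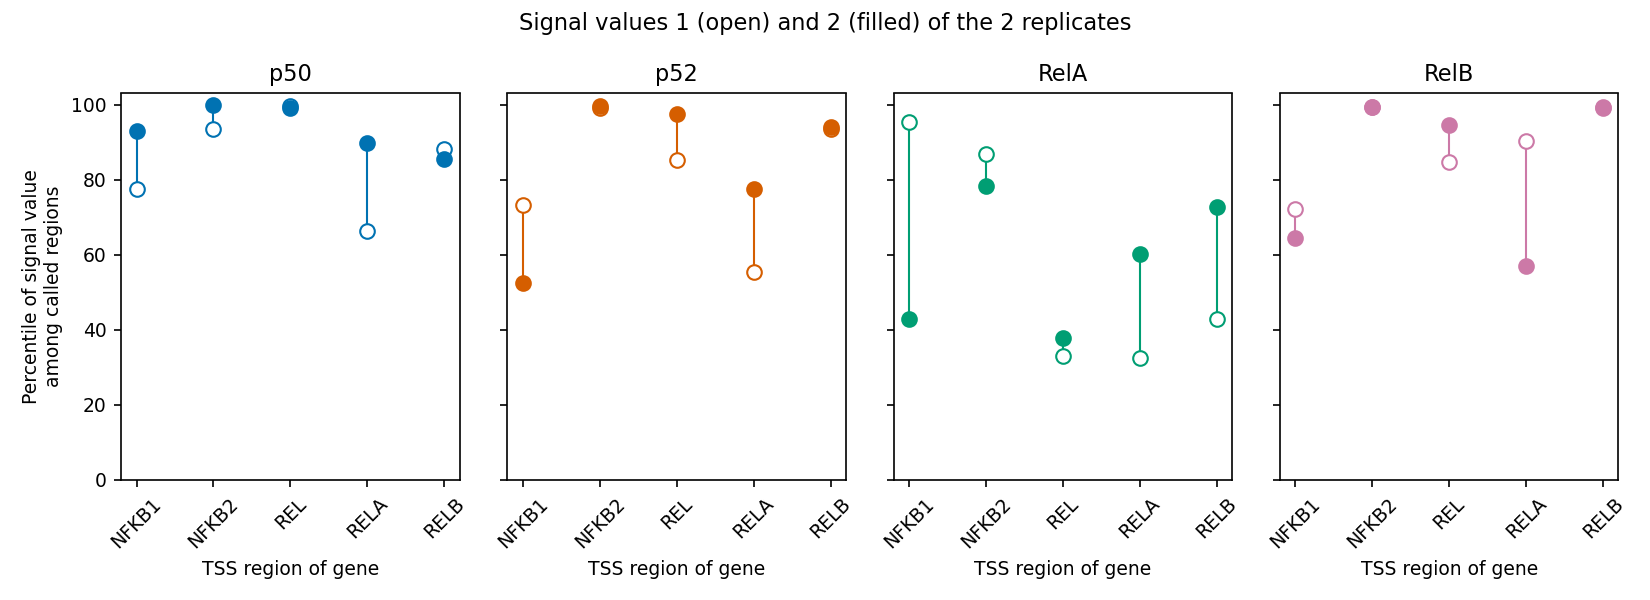
Percentile of each of the 2 replicate signal values among the called regions of a subunit (open, signal value 1; filled, signal value 2) for the TSS region of each gene. The pairs lie close together for NFKB2 and RELB in p52 and RelB, and far apart for RelA at NFKB1 (95.5 and 42.9).

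Which replicate gave signal value 1 or 2 is not stated, so the p52 values cannot be assigned to an antibody. The p52 pairs differed most at RELA (percentiles 55.3 and 77.5) and NFKB1 (73.3 and 52.5), and in opposite directions.

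At 4 of the 5 TSS regions the 4 summits lay within 49 bp, with spans of 39 bp at NFKB1 and RELB, 43 bp at REL and 49 bp at RELA. The span at NFKB2 was 1214 bp. Over the 349 all-4 regions the median span was 40 bp (quartiles 22 and 92 bp), 82.5% had a span of at most 250 bp, and 25, NFKB2 among them, had one at least as long as that of NFKB2.

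**Figure D4:**
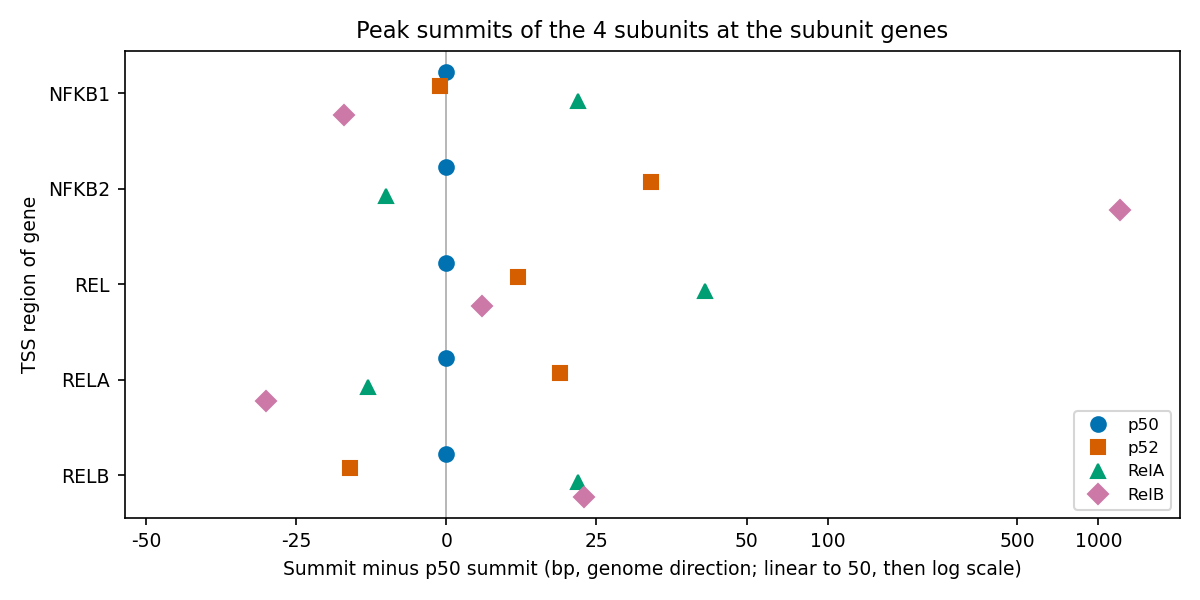
Position of each subunit's summit relative to the p50 summit at the 5 TSS regions, in bp along the genome (linear to 50 bp, then log scale). The summits of NFKB1, REL, RELA and RELB stay within 43 bp of p50, and the RelB summit of NFKB2 lies 1204 bp away.

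The reads, which are counted in every region whether or not a subunit was called, were set on a common scale as reads per kb of region divided by the median over the table. All 5 TSS regions exceeded that median for all 4 subunits, from 1.39 to 3.52 times for p50, 1.10 to 4.25 times for p52, 1.77 to 2.57 times for RelA and 2.08 to 8.00 times for RelB. These regions were called for all 4 subunits, whereas only 3.31% of all regions were called for RelA and 26.8% for RelB. Exceeding the median therefore adds little to the calls. The highest densities were those of RelB at NFKB2 (8.00 times, Poisson interval 7.31 to 8.74) and RELB (7.16 times, 6.22 to 8.21). RELA had the lowest for p50, p52 and RelB, and its p52 interval (0.9301 to 1.29) included the median. RelA density was nearly even over the 5 genes, and the intervals of the lowest, REL at 1.77 (1.41 to 2.20), and the highest, NFKB1 at 2.57 (1.98 to 3.26), overlapped. None of these densities is corrected for input. The RelA background level described for REL above was 1.83 times the median at REL and 0.673 times at NFKB2. RelA fold enrichment, which takes the background into account, ran from 5.04 at REL to 12.4 at NFKB2.

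Of the 11 regions without a RelA call, 7 had a RelA density above the median. In these it reached up to 1.68 times the median (24 reads, Poisson interval 1.08 to 2.51) at the region downstream of RELA. In the 2 REL regions at 7.01 kb upstream and 9.16 kb downstream it was 0.389 and 0.412 times, from 8 and 6 reads. RelB density reached 2.34 times the median (41 reads, 1.68 to 3.17) at the NFKB1 region at 62.9 kb, and 1.90 times at the REL region at 9.16 kb, neither of which was called for RelB. Since the median is taken over all regions, most of which have no RelA or RelB call, these densities do not show whether the subunits were bound.

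**Figure D5:**
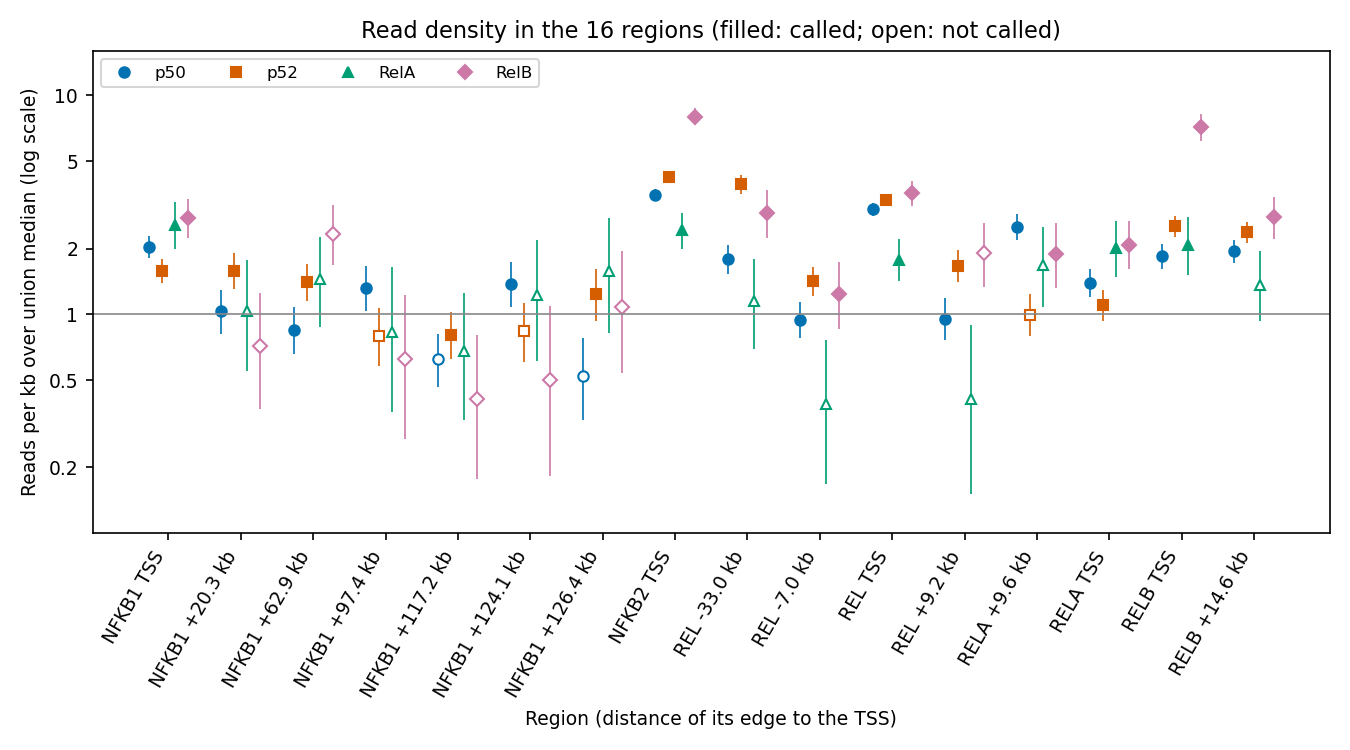
Reads per kb of region divided by the median of the same over all 14865 regions (log scale) for the 16 regions and 4 subunits, with exact 95% Poisson intervals. Filled symbols mark called subunits; RelB at NFKB2 (8.00) and RELB (7.16) lies highest, and open RelA symbols fall on both sides of 1.

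The share of p50 among the p50 and p52 reads was below the median of regions over a TSS at all 5 genes, but below that of all-4 regions only at RELB. Of the p50 and p52 reads, p50 made up 42.1% at RELB, 45.1% at NFKB2, 47.4% at REL, 55.8% at RELA and 56.0% at NFKB1. Over all regions at a TSS the median share was 64.6% (quartiles 57.0% and 70.9%), so all 5 genes lay below the lower quartile, RELB at percentile 3.35 and NFKB2 at 5.48. Many regions over a TSS have no p52 call, and among the 1238 called for both p50 and p52 the median was 58.5%, with NFKB1 at percentile 39.4 and RELA at 38.9. Over the 349 all-4 regions the median was 43.0%, and NFKB1, RELA, REL and NFKB2 lay above it while RELB lay below. In the 87 all-4 regions over a TSS it was 51.2%, with NFKB1 and RELA above and REL, NFKB2 and RELB below. The ratio of p50 to p52 fold enrichment gave a like picture, at percentiles 95.1 (NFKB1), 77.1 (RELA), 66.2 (REL), 56.4 (NFKB2) and 40.4 (RELB) of the 349. Over all 14864 regions with such reads the median was 48.2%. The 11 other member regions ranged from 29.5% to 71.5% with a median of 39.9%. The p50 and p52 libraries differ in total reads, so the shares can be compared between regions but not with an even split.

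Matches to the κB consensus were counted in all RefSeq windows from 250 bases before to 50 after a start, on both strands. Of the 5 genes, 4 had windows, 8 in all, and 4 of the 8 contained a match, at 1 of 2 starts of NFKB1, 2 of 3 of NFKB2, the start of REL and neither start of RELA. Of all 35116 windows, 11.3% contained one. With the stricter motif GGGNNTTTC the same 4 of the 8 windows had a match, and 4.78% of all windows had one. The 4 windows with a match consisted of G or C for 67.7% to 79% of their bases, and the others for 51.3% to 77%. The background shares were not limited to windows of like base composition, and the part that it played was not tested. Matches on both strands that overlap were counted as 1 place, which gave 6 places for the consensus and 5 for the stricter motif. The places were not all the same. At NFKB2, the stricter motif matched 229 bases upstream of start 3, where the consensus did not. It did not match the consensus places 107 bases upstream of start 2 and 176 bases upstream of start 3.

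Other genes of the pathway were taken from a list of 16, of which 7 could be paired with an identifier. The pairing used supplementary results of the same study, so the 7 may not stand for the list. Genes that were not paired may also have regions, which are not counted here. The 7 paired genes had 34 regions, of which 30 carried a p52 call, 25 a p50 call, 13 a RelB call, 4 a RelA call and 4 calls for all 4 subunits. Over all regions in the table the shares were 73.3% (p52), 73.8% (p50), 26.8% (RelB), 3.31% (RelA) and 2.35% (all 4), so the p50 count was close to the general share. Of the 7 genes, 5 had a region over the TSS, and at 3 of these it was called for all 4, against 3.56% of all regions over a TSS. NFKBIA, which encodes the inhibitor IκBα, had fold enrichments of 88.7 for p50, 101 for p52, 19.9 for RelA and 56.0 for RelB at its TSS. BIRC3, a ubiquitin ligase that acts on NIK, had 55.4, 81.9, 15.5 and 39.0 in the same order, and TNFAIP3, the deubiquitinase A20 that limits NF-κB signalling, 53.4, 58.4, 18.9 and 41.0. The RelA values of all 3 exceeded those of the 5 subunit genes. TNFAIP3 also had 18 of the 34 regions, more than the 16 of the 5 subunit genes together, and 17 of the 30 p52 calls. The all-4 region of NFKBID, an inhibitor related to IκB, was 1.36 kb from the TSS. BCL3, a nuclear partner of p50 and p52, had 5 regions without a RelA call, of which all were called for p52 and 4 each for p50 and RelB. BIRC2 had 3 regions and CHUK, which encodes IκB kinase α, had 1, and neither had a RelA call.

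The all-4 regions most like each member were found by the Euclidean distance between the log2 fold enrichments of the 4 subunits, over 349 regions. For NFKB2 the closest was the TSS region of NFKBIA, at a distance of 0.69, with 2 others near it at 0.72 and 0.75. For REL they included a region 23.0 kb from the TSS of DDIT4, a stress-induced inhibitor of mTOR signalling (0.30). They also included the NFKBID region (0.32, with fold enrichments of 34.6, 32.3, 5.59 and 16.7 for p50, p52, RelA and RelB). For RELB they included a region 9.03 kb upstream of the TSS of SBNO2 (0.35). The remaining neighbours among the 3 closest of each gene have no symbol in the tables used, so genes of the pathway list may be among them. The nearest neighbours of NFKB1 (0.43), REL (0.28), RELA (0.30) and RELB (0.27) were all without a symbol.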

How the data were processed

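The deposited table lists 14865 union regions of p50, p52, RelA and RelB on hg18. According to the methods and the submitters' processing notes, the authors processed the reads with CASAVA, Bowtie and SAMtools (versions not given in the sources used here), kept uniquely mapping reads, removed PCR duplicates, drew 10000000 reads per library and called peaks with MACS on merged replicates, at an IDR and FDR below 0.05. The study lists fewer than 10000000 mapped reads for both RelB libraries, which could therefore not be reduced to that size. The deposited read counts are whole numbers per region from merged replicates. Whether they were taken before or after the random draw is not stated. The deposited fold enrichment is a ratio of ChIP to input, and the deposited pileup is a coverage signal at the summit. The deposited IDR is a fraction and the deposited FDR a q-value, and the largest IDR in the table is under 0.01. The deposited signal values are a score of each replicate with no named scale. Peak calling per subunit means that a wide union region can join several peaks.

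Members were found by Ensembl identifier (version 54, closest gene or closest TSS within 1 Mb). TSS positions were those that the authors' distances place inside the TSS region, and could not be derived for NFKB2. Ranks and percentiles are among the called regions of a subunit unless another set is named. Exact Poisson intervals for reads and Wilson intervals for shares (95%) cover counting error only. Promoter windows are from RefSeq (GRCh38.p14), matched by symbol for 4 of 5 genes, and no coordinate was converted between builds. Symbols of other genes came from supplementary tables of the study.

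The members, the pathway list and the comparisons were chosen with earlier results of these data known. Values were given in full for each gene's region of highest summed fold enrichment, for each TSS region and for each all-4 region, and for other regions where they differ from these. The remaining choices were the 16 pathway genes and, for each all-4 member region, the 3 all-4 regions nearest to it. No test was run, since replicates are merged. Intervals, ranks and the motif search were tested on simulated data. The tools were matplotlib 3.10.9, scipy 1.17.1, pandas 2.3.3 and numpy 2.4.6 under Python 3.11.15.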

Additional observations from a re-analysis of the deposited data

How the results depend on the processing

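The counts were recomputed under 34 alternatives, and all 34 stayed within 1.5 times the reported count, but 6 of them could not have changed it. Assigned regions were 14 by the closest gene only, 16 by the closest TSS only and 15 within 10 kb of their listed closest gene or TSS, against 16. For the outermost NFKB1 regions that closest gene is not NFKB1, so the count of 15 does not measure distance to the member genes alone. Calls for p50, p52, RelB and RelA and for all 4 subunits did not change at an FDR below 1e-05 or a fold enrichment of at least 5. The fold limit was only just passed by RelA at the REL TSS (5.04) and by RelB downstream of RELA (5.04). A slightly higher limit would remove both calls, and REL from the all-4 regions. No call in the table has an IDR of 0.01 or more and no p50 call an FDR of 1e-05 or more, so these limits test nothing. By the closest gene only, p50 fell to 13 and p52 to 12. With all 4 summits required within 250 bp, the all-4 regions fell from 5 to 4, without NFKB2. Of the 20 values at the TSS regions, 9 were at or above percentile 90 by fold enrichment, 10 by pileup, and 8 and 9 by the signal values. Of the 64 read densities, 47 exceeded the median over the table and 39 the mean over it. Places with a κB match were 6, and 5 with the motif GGGNNTTTC, not all of them the same places. No paired analysis was possible because the replicates are merged in the table. For the same reason no replicate could be left out. The low read totals of RelA and RelB limit what a missing call can show, promoter windows of RELB were not analysed here, and c-Rel binding was not measured.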

Other observations

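The raised background around REL extended over much of chromosome 2. Pileup divided by fold enrichment, relative to the median of all regions of the same subunit, had a median of 1.49 over the 420 p50 regions that start below 75 Mb on hg18 and of 0.939 over the 530 p50 regions above. For p52 the medians were 1.49 (417 regions) and 0.949 (602), and for RelB 1.37 (121) and 0.944 (235). The limit of 75 Mb was chosen after the values were seen. Within 5 Mb of each gene, the median over the other p50 regions was 1.23 at NFKB1, 0.776 at NFKB2, 1.46 at REL, 0.827 at RELA and 1.11 at RELB. The cause of these differences was not tested.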
